A study of Mus musculus with 10 samples.

Results

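Hepatocyte transcription factors were followed through 10 spatial sections of mouse liver tissue: Hnf4a, Cebpa, Foxa1, Foxa2, Foxa3, Nr1h4, Nr1i3, Prox1 and Ppara. They were found by an exact match of the gene symbol, and all 9 of the 9 factors were among the 31053 genes of the files. Each was measured with the Visium assay of 10x Genomics, in which barcoded spots under a thin frozen section capture RNA and each captured molecule carries a unique molecular identifier (UMI). Several cells can lie over 1 spot, so each level describes spots or whole sections and not single hepatocytes. Levels are in CPM, the UMIs of a gene per 1e+06 UMIs over the spots called tissue.

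The sections came from 7 tissues: NEJ638, NEJ654, NEJ677, NEJ634, NEJ687 and NEJ723 gave 1 section apiece, and NEJ146 gave 4 that were cut next to each other. The model is the ABC-Myc mouse (Alb-Cre;CAG-MYC) on a C57BL/6J background, in which Cre under the albumin promoter removes a stop sequence ahead of a human MYC transgene in cells of the hepatocyte lineage. Normal controls were littermates that lacked one or both of these alleles, so a control could carry Alb-Cre alone, the silent transgene alone or neither. The labels call all samples hepatoblastoma and give no genotype or age for a section. In the study's text NEJ146, NEJ634, NEJ687 and NEJ723 are tumours, and it speaks of 3 healthy livers besides, which leaves NEJ638, NEJ654 and NEJ677. Because the labels do not carry that division, each tissue was its own group and no test was made between tissues. Means over the 7 tissues served to leave out low genes and to rank list genes, medians of the 4 and of the 3 are descriptions, and the question of which factors stay in tumours while hepatocyte genes fall was answered with ordered levels only.

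Hepatocyte identity is held by a small network of DNA-binding proteins that sustain each other and their shared targets. HNF4A and C/EBP alpha (Cebpa) drive the genes of plasma proteins and adult metabolism, the FOXA proteins open chromatin at liver enhancers, and PROX1 acts early in the hepatoblast and limits parts of the metabolic program. FXR (Nr1h4), CAR (Nr1i3) and PPAR alpha (Ppara) are nuclear receptors that respond to bile acids, xenobiotics and fatty acids.

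The 250 bases upstream of the annotated transcription start are shown for the members with the widest gap between the 4 tissues called tumours and the other 3 (Cebpa and Nr1i3), for a member whose levels overlapped (Hnf4a) and for one that differed among the tumours (Foxa1). All 9 factors matched the RefSeq promoter table (GRCm38.p6), with 13 windows. They lie at chr7:35119043-35119292 on the + strand (Cebpa), chr1:171213720-171213969 on the + strand (Nr1i3), chr2:163506607-163506856 on the + strand (Hnf4a) and chr12:57546112-57546361 on the - strand (Foxa1). Capitals mark a match, on either strand, to CACGTG (the E-box that MYC binds), TGTTTAC (FOXA), CAAAGTCCA (HNF4A), TTGCGCAA (C/EBP) or AGGTCA (the half-site of many nuclear receptors).
Cebpa: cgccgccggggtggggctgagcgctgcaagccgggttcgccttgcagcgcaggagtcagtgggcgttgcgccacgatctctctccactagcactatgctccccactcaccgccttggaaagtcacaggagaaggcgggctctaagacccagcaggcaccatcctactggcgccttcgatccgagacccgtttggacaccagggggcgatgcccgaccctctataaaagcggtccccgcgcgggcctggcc
Nr1i3: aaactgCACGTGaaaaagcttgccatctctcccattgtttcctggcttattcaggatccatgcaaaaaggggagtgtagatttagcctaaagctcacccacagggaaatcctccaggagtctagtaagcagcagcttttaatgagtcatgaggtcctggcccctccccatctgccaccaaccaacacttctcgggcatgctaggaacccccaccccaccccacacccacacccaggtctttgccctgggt
Hnf4a: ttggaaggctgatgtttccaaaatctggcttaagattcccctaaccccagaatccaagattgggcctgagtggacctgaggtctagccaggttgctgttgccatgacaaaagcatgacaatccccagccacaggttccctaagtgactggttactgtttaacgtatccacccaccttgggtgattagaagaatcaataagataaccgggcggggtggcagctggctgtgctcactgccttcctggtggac
Foxa1: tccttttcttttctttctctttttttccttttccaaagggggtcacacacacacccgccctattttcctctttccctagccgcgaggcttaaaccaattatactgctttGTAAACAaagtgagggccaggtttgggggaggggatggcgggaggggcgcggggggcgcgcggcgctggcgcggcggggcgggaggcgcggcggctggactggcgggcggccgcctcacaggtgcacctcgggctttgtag
The E-box in the Nr1i3 window begins 244 bases before the start, and 6.02% of all 32851 windows of this length hold one. The FOXA match in the Foxa1 window begins 141 bases before the start, and 3.17% of all windows hold one. Among the other members' windows only that of Nr1h4 held a match, the half-site AGGTCA, which is in 14% of all windows, while CAAAGTCCA and TTGCGCAA are in 0.384% and 0.164%. The Cebpa window has 22 CpG dinucleotides and the Foxa1 window 21, against 2 in the Nr1i3 window, 3 in the Hnf4a window and a median of 6 over all windows. The starts are those of RefSeq transcripts and can differ from the gene positions given with each factor, which are spans of the GENCODE gene models: the Foxa1 window lies inside that span, and the Hnf4a window crosses its edge. Hnf4a has a further RefSeq window at chr2:163546905-163547154, with 4 CpG dinucleotides and no match, and the one shown is that of the more upstream start. The UMI counts of a gene do not separate transcripts by their start. Which Hnf4a start was used in these tissues was not tested. A match describes these letters and not a bound site.

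The tissue spots numbered 1890 to 4878 a section and held 39280329 to 117077925 UMIs. Every plasma protein gene of the marker list was present in each section, and their summed level was 171081 to 205709 CPM in NEJ638, NEJ654 and NEJ677 against 51875 to 87904 CPM in the other 4 tissues. Alb was the most abundant of them. Of the 20 genes, 3 were at least 2-fold lower in each of the 4 tissues than in any of the 3. The summed level of 25 adult hepatocyte enzymes was 27395 to 29640 CPM in those 3 tissues and 3824 to 12209 CPM in the 4 tissues. The oncofetal list, which holds H19, Afp and Igf2, summed to 10.4 to 95.2 CPM and 3834 to 13632 CPM in the same sets. NEJ146 was labelled total RNA and the others polyA RNA, its tissue spots were those with 8000 or more UMIs, and its mitochondrial share was 6.78% to 7.22% against 2.46% to 3.86% elsewhere. The tissue and its processing cannot be told apart for NEJ146.

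Errors are exact 95% Poisson intervals for tissues with 1 section, which cover counting error only, and the SD over the 4 adjacent sections for NEJ146, which covers sectioning and library preparation of 1 tissue. The counts behind a member's level ran from 78 UMIs (Ppara in NEJ723) to 14670 UMIs (Hnf4a in NEJ146 section 3), so Ppara and Foxa1 are the least precise. Neighbours in the order of levels were said to differ when the log2 difference exceeded 2.83 times an SD between sections and, where both tissues had 1 section, their intervals did not overlap. That SD was the factor's own over the NEJ146 sections or, where larger, the median SD of 0.0852 over 8021 genes. Only neighbours were set against this limit, so tissues farther apart in an order can differ where no neighbours do. In tissue sections, fewer hepatocytes and less RNA in each hepatocyte cannot be told apart.

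**Figure D1:**
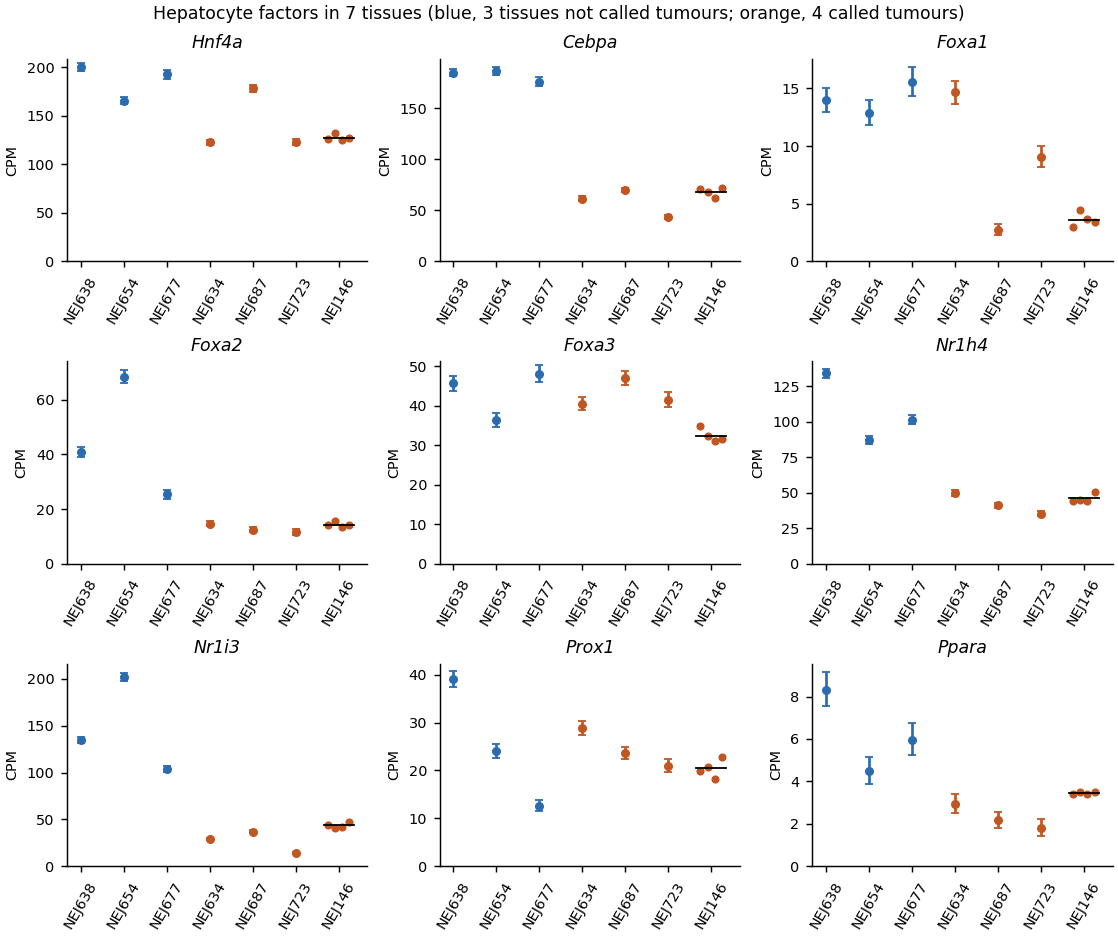
Level of each factor in CPM (y axis, from 0) in the 7 tissues (x axis). Points of the tissues with 1 section carry exact 95% Poisson intervals, and NEJ146 is shown as its 4 sections with a line at their mean. Cebpa and Nr1i3 were lower in all 4 orange tissues than in any blue one, by at least 2.53-fold and 2.39-fold, while Prox1 was highest and lowest within the blue tissues.

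Hnf4a, the nuclear receptor at the centre of the network (ENSMUSG00000017950, chromosome 2, 163506808 to 163572910, GRCm38), stayed within a 1.63-fold range with total UMIs. Its level was 200.3 CPM in NEJ638, 166 in NEJ654 and 193 in NEJ677. It was 123 in NEJ634, 178 in NEJ687 and 123 in NEJ723. The NEJ146 sections were at 126, 132, 125 and 127 CPM (mean 128 ± 3.09, SD, n = 4). NEJ687 thus lay between NEJ677 and NEJ654, and the sets overlapped at a log2 gap of -0.11, the gap being the lowest of the 3 tissues over the highest of the 4. This overlap depends on the scaling: with TMM factors, which adjust for the makeup of each library, the gap was 0.34, and with totals that leave out mitochondrial, globin, plasma protein and enzyme genes it was 0.12. The only neighbours that differed beyond this limit were NEJ654 and NEJ146, although the counting intervals of NEJ677, NEJ687 and NEJ654 did not overlap each other.

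Cebpa, the C/EBP alpha gene (ENSMUSG00000034957, chromosome 7, 35119293 to 35121928), stood in 2 separate levels. It was at 185 CPM (NEJ638), 187 (NEJ654) and 176 (NEJ677), and these neighbours did not differ beyond their spread. It was at 61.6 CPM in NEJ634, 69.6 in NEJ687 and 43.5 in NEJ723. The NEJ146 sections were at 70.5, 67.8, 62.1 and 72.3 CPM (mean 68.2 ± 4.44, SD, n = 4). The 4 tissues called tumours therefore lay below the other 3 by 2.53-fold to 4.29-fold, with NEJ723 the lowest and beyond the spread from NEJ634. The gap stayed above 1 on the log2 scale under each scaling, from 1.34 with total UMIs to 1.5 with the reduced totals.

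The 3 FOXA genes followed 3 different orders. Foxa3 (ENSMUSG00000040891, chromosome 7, 19013284 to 19023538) had 45.7 CPM in NEJ638, 36.3 in NEJ654 and 48.1 in NEJ677. It was at 40.5, 46.9 and 41.5 CPM in NEJ634, NEJ687 and NEJ723, and at 34.8, 32.3, 31.1 and 31.7 CPM in the NEJ146 sections (mean 32.5 ± 1.64, SD, n = 4). No neighbours in its order differed beyond their spread, and the whole range was 1.48-fold with total UMIs. The interval of NEJ687 (45.2 to 48.8 CPM) still lay above that of NEJ654 (34.5 to 38.2 CPM). The sets overlapped at a gap of -0.37 with total UMIs and stood just apart at 0.07 with TMM factors.

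Foxa2 (ENSMUSG00000037025, chromosome 2, 148042877 to 148046969) was at 40.7 CPM in NEJ638, 68.4 in NEJ654 and 25.4 in NEJ677. It was at 14.6, 12.4 and 11.5 CPM in NEJ634, NEJ687 and NEJ723, and at 14.1, 15.8, 13.2 and 14.2 CPM in the NEJ146 sections (mean 14.3 ± 1.05, SD, n = 4). The sets did not overlap, at a distance of 1.74-fold, which was 2.15-fold with TMM factors. The 3 upper tissues also differed from each other beyond the spread, while no neighbours among the 4 lower tissues did. Among the lower ones, the interval of NEJ634 (13.6 to 15.6 CPM) lay above that of NEJ723 (10.5 to 12.6 CPM).

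Foxa1 (ENSMUSG00000035451, chromosome 12, 57540628 to 57546916) divided the tumours. Its level was 14.0 CPM in NEJ638, 12.9 in NEJ654 and 15.5 in NEJ677. NEJ634 lay among them at 14.6 CPM, NEJ723 followed at 9.07 and NEJ687 was at 2.73. The NEJ146 sections were at 2.94, 4.44, 3.66 and 3.43 CPM (mean 3.62 ± 0.623, SD, n = 4), and the step from NEJ723 to NEJ146 was the only one beyond the spread. The gap changed sign with the scaling, from -0.18 with total UMIs to 0.38 with TMM factors. Foxa1 is also a gene of bile duct cells, and the summed level of 8 duct markers was 674 CPM in NEJ634 and 421 in NEJ723 against 78.1 in NEJ687, 116 to 187 in NEJ146 and 75.5 to 139 in the other 3 tissues. Krt19 was at 43.2 CPM in NEJ634 and at 1.27 to 7.14 CPM in the other tissues, and the part of duct cells in the Foxa1 level was not tested.

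Of all FOXA UMIs, Foxa2 held 58.1% in NEJ654 (exact Clopper-Pearson interval 56.8% to 59.5%), 40.6% in NEJ638 and 28.5% in NEJ677. Its share was 20.9% in NEJ634, 20.0% in NEJ687, 18.5% in NEJ723 and 27.2% to 30.0% in the NEJ146 sections. Foxa1 held 21.0% in NEJ634 (19.7% to 22.3%) and 4.40% in NEJ687 (3.75% to 5.13%). The intervals of Foxa1 in these 2 tumours did not overlap, nor did those of Foxa2 between NEJ654 and any other section.

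Prox1, a homeobox factor of hepatoblasts and also of lymphatic vessels (ENSMUSG00000010175, chromosome 1, 190118035 to 190170714), was at 39.1 CPM in NEJ638, 24.1 in NEJ654 and 12.6 in NEJ677. It was at 28.8 CPM in NEJ634, 23.6 in NEJ687 and 21.0 in NEJ723. The NEJ146 sections were at 20.0, 20.7, 18.3 and 22.9 CPM (mean 20.5 ± 1.93, SD, n = 4). The highest and the lowest tissue both belonged to the 3 not called tumours, each beyond the spread from its neighbour, and the 4 tumours lay between them under each scaling run. A list of 5 lymphatic genes summed to 107, 77.5 and 61.6 CPM in NEJ638, NEJ654 and NEJ677, which is the order of Prox1 there. It summed to 13.3 to 48.1 CPM in the tumours, where no neighbours differed in Prox1 beyond their spread. The Prox1 interval of NEJ634 (27.4 to 30.2 CPM) still lay above that of NEJ723 (19.7 to 22.4 CPM). The most abundant genes of the list were Reln, Flt4 and Ccl21a, and its sum need not follow lymphatic vessels alone. The lymphatic part in the Prox1 level was not tested.

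Of the nuclear receptors, Nr1i3 spanned the widest range of the 9 factors, 14.9-fold. The gene (ENSMUSG00000005677, chromosome 1, 171213970 to 171220701) encodes CAR, which switches on drug-metabolising cytochrome P450 genes. Its levels were 134 CPM (NEJ638), 202 (NEJ654) and 104 (NEJ677). It was at 29.1 CPM in NEJ634, 36.7 in NEJ687 and 13.6 in NEJ723, and at 43.9, 41.0, 41.7 and 47.6 CPM in the NEJ146 sections (mean 43.6 ± 2.94, SD, n = 4). All 4 tumours lay below the other 3 tissues, by 2.39-fold at the nearest, and NEJ723 was lower than NEJ634 beyond the spread.

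Nr1h4, the gene of the bile acid receptor FXR (ENSMUSG00000047638, chromosome 10, 89454234 to 89533585), had 134 CPM in NEJ638, 86.9 in NEJ654 and 101 in NEJ677. It was at 49.8, 41.0 and 35.4 CPM in NEJ634, NEJ687 and NEJ723, and at 44.4, 44.7, 44.3 and 50.4 CPM in the NEJ146 sections (mean 46.0 ± 2.94, SD, n = 4). The sets did not overlap and were 1.75-fold apart, or 2.15-fold with TMM factors. No neighbours among the 4 tumours differed beyond their spread. The interval of NEJ634 (48.0 to 51.6 CPM) still lay above that of NEJ723 (33.6 to 37.2 CPM).

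Ppara, the fatty acid receptor (ENSMUSG00000022383, chromosome 15, 85734983 to 85802819), was low throughout in UMIs. It was at 8.32 CPM (7.55 to 9.15) in NEJ638, 4.47 (3.86 to 5.15) in NEJ654 and 5.96 (5.22 to 6.77) in NEJ677. It was at 2.94 CPM (2.51 to 3.42) in NEJ634, 2.16 (1.80 to 2.57) in NEJ687, 1.79 (1.41 to 2.23) in NEJ723 and 3.4, 3.5, 3.39 and 3.48 in the NEJ146 sections (mean 3.44 ± 0.0543, SD, n = 4). The 4 tumours lay below the other tissues, at 1.3-fold between NEJ654 and NEJ146. Neighbours among NEJ634, NEJ687 and NEJ723 had overlapping intervals, while that of NEJ634 lay above that of NEJ723.

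Of the 9 factors, 2 (Cebpa and Nr1i3) were at least 2-fold lower in each of the 4 tissues than in any of the 3, and none was at least 2-fold higher. Of all 12648 genes whose mean reached 1 CPM, 4.69% met the first rule and 11.4% the second. Without a minimum fold, 5 of the 9 (Cebpa, Foxa2, Nr1h4, Nr1i3 and Ppara) were lower without overlap, and 16.3% of all genes were. None of the 9 was higher without overlap, against 42.1% of all genes. The median gene was higher in the 4 tissues by 0.46 on the log2 scale, taken as the median of the 4 over the median of the 3, while the median member was at -1.08. TMM factors, at 0.796 to 0.936 in the 3 tissues, 1.15 to 1.28 in NEJ634, NEJ687 and NEJ723 and 0.941 to 0.985 in NEJ146, removed part of that shift and brought Foxa2 and Nr1h4 past 2-fold, for a count of 4, and with the reduced totals Nr1h4 passed as well, for a count of 3. Blood cell genes moved with the same division of tissues: erythroid markers summed to 96.5 to 252 CPM in the 3 tissues and 939 to 10249 CPM in the 4, with 7 of 8 called higher, and neutrophil markers to 7.74 to 18.6 CPM and 260.0 to 1109 CPM, with 7 of 7 called higher. Their part in the factor levels was not tested.

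**Figure D2:**
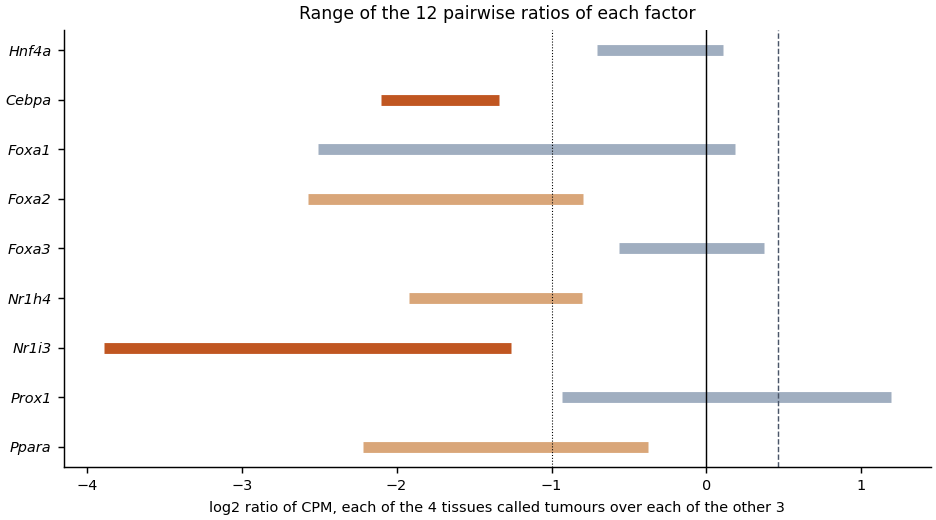
Range of the log2 ratio of CPM for each of the 4 tissues called tumours over each of the other 3 (x axis), 1 bar per factor. The solid line is no difference, the dotted line 2-fold lower and the dashed line the median gene at 0.46; Cebpa and Nr1i3 lie wholly beyond the dotted line, and the bars of Hnf4a, Foxa1, Foxa3 and Prox1 cross the solid line with total UMIs, while with TMM factors only Prox1 crosses it.

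The genes most like each factor were those with the highest Pearson correlation of log2(CPM + 1) over the 7 tissues, among 8021 genes whose mean reached 10 CPM. With 7 points that share the same libraries, these are descriptions. Hnf4a was most like Hpx (hemopexin, a plasma protein; r = 0.977) and Cldn14 (r = 0.973). Cebpa was most like Pbld2 (r = 0.999) and Crp (C-reactive protein; r = 0.999), and Crp was at 348 to 419 CPM in the 3 tissues against 68.8 to 123 CPM in the 4. Nr1i3 was most like Cyb5b (r = 0.996) and Maob (r = 0.992), a mitochondrial cytochrome b5 and a monoamine oxidase.

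Nr1h4 was most like Fam35a (r = 0.999) and Inhbc, a hepatocyte activin subunit (r = 0.996). Ppara was most like Fdx1, a ferredoxin (r = 0.979), and again Fam35a (r = 0.977). Foxa2 went with Rnf14 (r = 0.981) and Paox (r = 0.978), Foxa1 with Tstd1 (r = 0.980) and Dusp22 (r = 0.975), and Foxa3 with Nceh1 (r = 0.963) and Slc35b1 (r = 0.960). The nearest match of Prox1, Cggbp1 (r = 0.962), was the weakest among the 9 factors, and next came Hjurp, a chaperone of centromeric histone (r = 0.941), which was at 147 CPM in NEJ638 and 39.7 CPM in NEJ677.

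Of 26 other liver factors, 23 passed the minimum level, and 2 were called lower and none higher. These were Tbx3, which marks central hepatocytes, and Zbtb20, a repressor of Afp, chosen here after their values were seen, as were the called targets outside the 3 most abundant genes of a list. Tbx3 was at 9.80 to 26.5 CPM in the 3 tissues and 0.0458 to 2.92 CPM in the 4, and Zbtb20 at 20.2 to 24.0 CPM and 5.04 to 9.68 CPM. The most abundant factors of the list were Creb3l3, a fasting-induced factor, at 285 to 402 CPM against 234 to 363 CPM, Rxra, the partner of FXR, CAR and PPAR alpha, at 173 to 207 CPM against 79.1 to 132 CPM, and Cebpb at 85.7 to 191 CPM against 60.2 to 145 CPM. The median over the list was -0.90 on the log2 scale, beside 0.46 over all genes.

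Known targets of the factors were counted by the same rule, with the background of 4.69% lower and 11.4% higher. The lists share genes, so their counts are not separate. F9, Tat and G6pc are in the HNF4A and C/EBP alpha lists, and Baat is in the HNF4A and FXR lists. Of 12 HNF4A targets, 5 were called lower (Apoc3, F9, Otc, Cyp8b1 and Baat) and none higher. Hnf4a itself overlapped with total UMIs, but not with TMM factors (a gap of 0.34) or the reduced totals (0.12). How the targets relate to the Hnf4a level was not tested. The 3 most abundant were Ttr at 13532 to 17327 CPM against 5254 to 10308 CPM, Apoc3 at 3107 to 5880 CPM against 319 to 1134 CPM, and Apob at 1195 to 1293 CPM against 628 to 900.4 CPM.

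Of 8 C/EBP alpha targets, 2 were called lower, Alb and F9. Alb fell from between 51663 and 85700 CPM to between 7839 and 13131 CPM. Pck1, an enzyme of gluconeogenesis, was at 555 to 1437 CPM against 10.9 to 332 CPM, and Cps1 of the urea cycle overlapped at 1701 to 2482 CPM against 1168 to 2306 CPM. Of 7 CAR targets measured, 2 were called lower. Cyp2c29 was at 766 to 1304 CPM against 0.115 to 254 CPM, with NEJ723 the lowest, Cyp2b9 at 46.1 to 454 CPM against 0.275 to 12.1 CPM, and Gstm3 overlapped at 170 to 326 CPM against 10.2 to 454 CPM. Summed over the list, the tissues stood in the same order as for Nr1i3. The sum was 2190 CPM in NEJ654, 1371 in NEJ638 and 1178 in NEJ677. It was 618 to 889.7 CPM in the NEJ146 sections, 254 in NEJ687, 127 in NEJ634 and 12.3 in NEJ723. Adult enzymes, among them Cyp2c29, kept this order in the tumours. They had 10792 to 12209 CPM in NEJ146, 8327 in NEJ687, 6463 in NEJ634 and 3824 in NEJ723. For them NEJ638 lay above NEJ654 (29640 and 28203 CPM). Markers of central hepatocytes kept the order in NEJ654, NEJ638 and NEJ677 (6550, 4866 and 4393 CPM). For these markers NEJ634 lay above NEJ687 (230 and 144 CPM). Whether the order is particular to CAR targets was not tested. Of the 7 measured targets 5 were highest in NEJ654, the exceptions being Gstm3, highest in NEJ146 at 454 CPM, and Cyp2c55, highest in NEJ638 at 47.7 CPM.

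FXR targets moved in both directions: of 8 measured, 2 were called lower and 2 higher. The higher ones were Slc51b, the beta subunit of the basolateral bile acid exporter, at 3.08 to 8.44 CPM against 70.6 to 113 CPM, and Apoc2 at 5.96 to 7.39 CPM against 20.3 to 60.8 CPM. The lower ones were Slc27a5 at 703 to 998 CPM against 16.7 to 231 CPM and Baat at 168 to 227 CPM against 7.38 to 44.7 CPM, the 2 enzymes that conjugate bile acids. Fetub (467 to 626 CPM against 87.5 to 761 CPM) and the bile salt pump Abcb11 (296 to 469 CPM against 116 to 486 CPM) overlapped. The partner subunit Slc51a was below the minimum level.

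Of 15 PPAR alpha targets measured, 5 were called lower, among them Ehhadh, Cyp4a10, Vnn1 and Fabp1, and none higher. Fabp1, the liver fatty acid binding protein, was at 10166 to 23337 CPM against 1670 to 2375 CPM. Adult enzymes were called lower in 14 of 25, and the medians of the HNF4A, C/EBP alpha, FXR, CAR and PPAR alpha target lists were -1.60, -1.61, -0.99, -1.30 and -1.03 on the log2 scale.

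Whether the factors follow hepatocyte enzymes within a tissue was measured by ranking the tissue spots of each section by the share of UMIs from the 25 adult enzymes and dividing them into 3 equal parts. The top part (enzyme-rich spots) and the bottom part (enzyme-poor spots) were summed for each tissue and compared with edgeR's quasi-likelihood test with tissue as a block, without the enzyme genes. None of the 9 factors passed an adjusted p of 0.05 in either direction, and 0% of 12980 genes did (0 higher and 0 lower, with 2651 genes at an unadjusted p under 0.05). DESeq2 on the same sums called 190 genes higher and 146 lower, none of them a member.

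**Figure D3:**
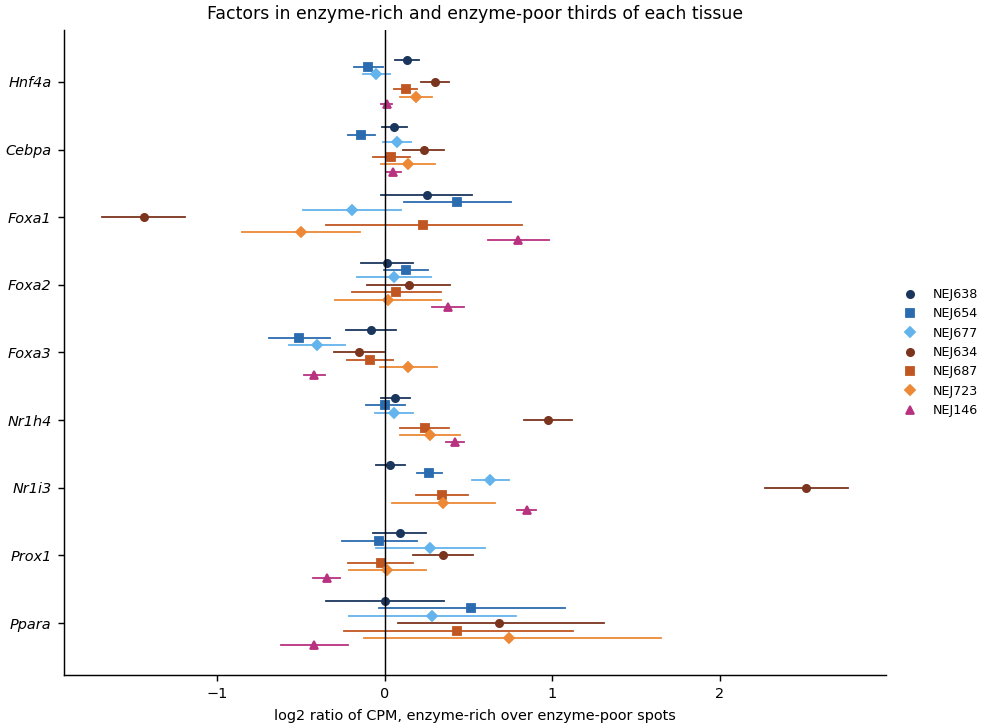
Log2 ratio of CPM in enzyme-rich over enzyme-poor spots (x axis) for each factor in each of the 7 tissues, with exact 95% intervals that cover counting error only. Nr1i3 and Foxa1 in NEJ634 stand farthest from 0, at 2.51 and -1.44.

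Nr1i3 had the largest estimate, a log2 difference of 0.73 (SE 0.28, adjusted p = 0.208 with edgeR). It was at 54.5 CPM in enzyme-rich and 9.55 CPM in enzyme-poor spots of NEJ634, and at 56.0 and 31.1 CPM in NEJ146. The ratios were 5.71 in NEJ634, 1.80 in NEJ146, 1.55 in NEJ677, 1.27 in NEJ687 and in NEJ723, 1.20 in NEJ654 and 1.02 in NEJ638. It was higher in enzyme-rich spots of 7 of 7 tissues, and only in NEJ638 did the interval include 1. In the fit over the 7 tissues, markers of the central lobule zone were also higher in enzyme-rich spots, and the part of zone was not tested. Without NEJ634 the estimate from edgeR was 0.44 (adjusted p = 0.271 with edgeR), and with spots split by plasma proteins in place of enzymes it was -0.21.

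Nr1h4 had an estimate of 0.35 (SE 0.14, adjusted p = 0.215 with edgeR), which was 0.20 without NEJ634 and 0.057 with spots split by plasma proteins. Its ratio was 1.96 in NEJ634, 1.34 in NEJ146, 1.21 in NEJ723 and 1.18 in NEJ687, with intervals above 1, and 1 to 1.05 in NEJ638, NEJ654 and NEJ677, with intervals that included 1. The difference between these sets was not tested. The enzyme split was also narrower in NEJ638, NEJ654 and NEJ677. Summed enzymes were at 32448 CPM in enzyme-rich and 27246 CPM in enzyme-poor spots of NEJ638. They were at 30718 and 25413 CPM in NEJ654 and 30329 and 24614 CPM in NEJ677. In NEJ634 they were at 9816 and 3305 CPM, in NEJ687 at 10627 and 6485, and in NEJ723 at 4815 and 2808. The NEJ146 sections were at 15496 to 18218 and 6572 to 7078 CPM. Hnf4a had ratios of 0.93 (NEJ654) to 1.23 (NEJ634), with intervals above 1 in NEJ638, NEJ634, NEJ687 and NEJ723 and below 1 in NEJ654. Cebpa had ratios of 0.91 (NEJ654) to 1.17 (NEJ634). Foxa2 was at 1.01 to 1.3, with NEJ146 the highest.

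Foxa1 went in opposite directions in different tumours. In NEJ634 it was at 9.15 CPM in enzyme-rich and 24.8 CPM in enzyme-poor spots, a ratio of 0.37 (0.31 to 0.44), and in NEJ723 at 8.04 and 11.4 CPM, a ratio of 0.71 (0.55 to 0.90). In NEJ146 it was at 5.6 and 3.22 CPM, a ratio of 1.74 (1.53 to 1.97). Outside the tumours Foxa1 was also higher in enzyme-rich spots of NEJ654, at 1.35 (1.08 to 1.69). The intervals included 1 in NEJ638, NEJ677 and NEJ687, at ratios of 1.19, 0.87 and 1.17. Duct markers summed to 327 CPM in enzyme-rich and 1317 CPM in enzyme-poor spots of NEJ634, to 328 and 537 CPM in NEJ723, and to 163 to 218 and 126 to 237 CPM over the sections of NEJ146. Foxa3 and Prox1 were lower in the enzyme-rich spots of NEJ146, at ratios of 0.75 and 0.79, but Prox1 was higher in those of NEJ634 at 1.27 (1.12 to 1.44), with a fitted estimate of 0.10 that was 0.0088 without NEJ634. Foxa3 was lower also in NEJ654, NEJ677 and NEJ634 at 0.70, 0.76 and 0.90. In NEJ146 Ppara was also lower in enzyme-rich spots, at 0.75 (0.65 to 0.86), against 1 to 1.67 in the other 6 tissues, of which only NEJ634 had an interval above 1 (1.06 to 2.48).

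Lobule zone, other cells and depth moved with this division. In the edgeR fit the 4 tested markers of the central zone had a median log2 difference of 1.46. That of the 2 tested portal markers was -0.0024, and Glul, a central gene outside these lists, was at 0.93. The lymphatic list went both ways, with Reln and Flt4 at 0.46 and 0.23 and Ccl21a and Mmrn1 at -1.91 and -0.95. None of these genes had an adjusted p under 0.05 with edgeR. The median UMIs per spot were 34327 in enzyme-rich and 23835 in enzyme-poor spots of NEJ634, whose stromal markers summed to 1010.5 and 2323 CPM. Depth ran the other way in NEJ638, at 10914.5 and 14424.5, and was 12994 and 13076 in NEJ687. Macrophage markers summed to 1175 CPM in enzyme-rich and 313 CPM in enzyme-poor spots of NEJ634, and erythroid genes to 5865 and 14290 CPM in NEJ687. In NEJ146 erythroid genes summed to 3134 to 3721 CPM in enzyme-rich and 18276 to 23780 CPM in enzyme-poor spots of a section. Their part in the factor values was not tested.

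**Figure D4:**
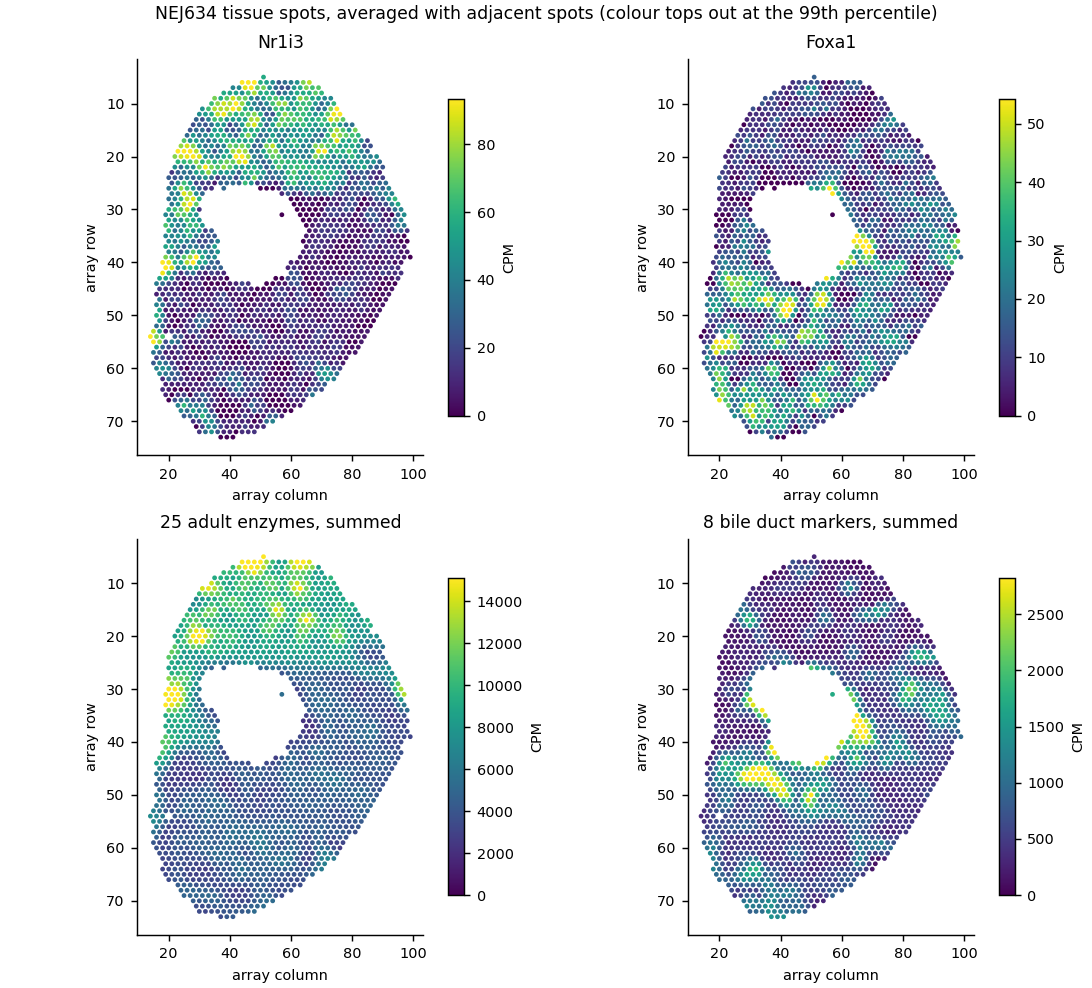
NEJ634 tissue spots at their array row and column, coloured by CPM of Nr1i3, Foxa1, the summed 25 adult enzymes and 8 summed bile duct markers, each spot averaged with its adjacent spots. Nr1i3 and the enzymes were high along the upper and left edge, where Foxa1 and the duct markers were low.

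Averaged over each spot and its adjacent spots, Nr1i3 ranged from 3.89 CPM at the 10th to 62.4 CPM at the 90th percentile of the 1890 spots and was at 0 around 161 of them. Foxa1 ranged from 3.81 to 32.2 CPM and Hnf4a from 82.2 to 158 CPM between the same percentiles, with no spot at 0 for Hnf4a. The summed enzymes were at 3443 to 10262 CPM. Nr1i3 in the enzyme-rich spots of NEJ634, at 54.5 CPM, was still below the 85.9 CPM in the enzyme-poor spots of NEJ677. Both values leave the enzyme genes out of the total. The highest averaged value in NEJ634, 122 CPM, lay above the 104 CPM over all tissue spots of NEJ677, the lowest of the 3 tissues.

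Lobule zones were taken from 6 central and 6 portal marker genes, as the top and bottom of 3 equal parts of the spots ranked by central minus portal share. In NEJ638, NEJ654 and NEJ677 the split was borne out by genes left out of it: Glul, the glutamine synthetase of the cells around the central vein, was 4.33-fold to 5.75-fold higher in central spots, and Ass1 and Arg1 of the urea cycle were at ratios of 0.43 to 0.56. In NEJ634 and NEJ687 Cyp2a5, another central gene, was instead at 0.51 and 0.81, and in NEJ723 Glul was at 0.97, so zones were not read in these tumours. In NEJ146 the check genes kept their sides with smaller ratios (Glul 2.62, Ass1 0.83), and its values are given apart from those of the 3 tissues. A factor was placed on a side when its exact 95% interval, which covers counting error only, excluded a ratio of 1 in all 3. That held for 2 of the 9 factors, both central, where 7.91% of 12636 genes were central and 4.69% portal.

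**Figure D5:**
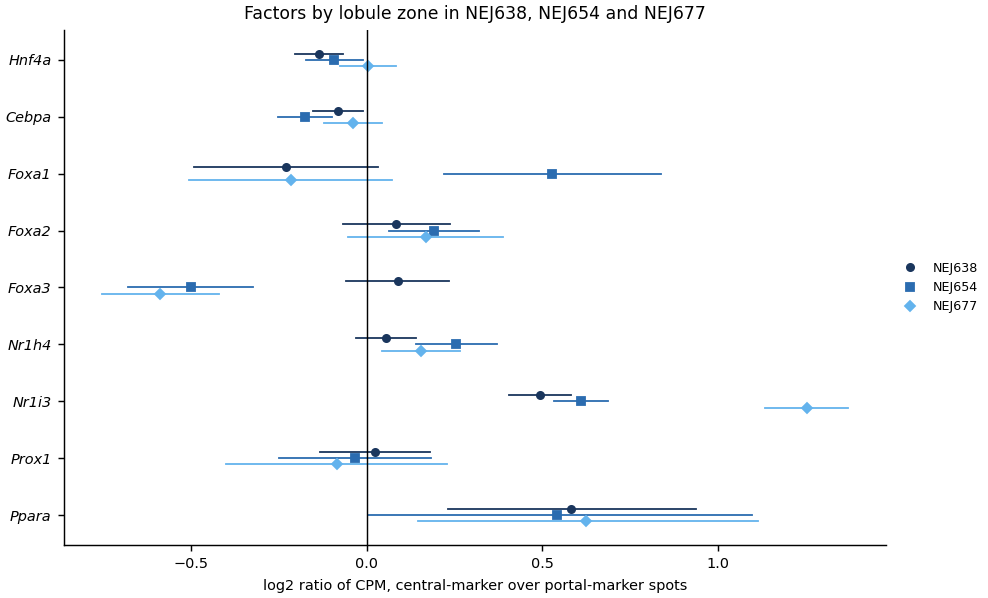
Log2 ratio of CPM in central-marker over portal-marker spots (x axis) for each factor in NEJ638, NEJ654 and NEJ677, with exact 95% intervals that cover counting error only. Nr1i3 and Ppara lie to the right of 0 in all 3 tissues.

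Nr1i3 was at 149.9 CPM in central and 106 CPM in portal spots of NEJ638, at 237 and 155 CPM in NEJ654 and at 150.0 and 62.9 CPM in NEJ677. The ratios were 1.41 (1.32 to 1.5), 1.53 (1.45 to 1.61) and 2.38 (2.20 to 2.59). Ppara was at ratios of 1.5 (1.17 to 1.92), 1.46 (1.002 to 2.14) and 1.54 (1.11 to 2.17) on 47 to 197 UMIs a zone, and with the spots split at the median NEJ654 no longer excluded 1 (1.2, 0.89 to 1.61).

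Foxa3 was portal in NEJ654 and NEJ677, at 0.71 and 0.66, but not in NEJ638 at 1.06. Hnf4a and Cebpa were portal by a small margin in NEJ638 (0.91 and 0.95) and NEJ654 (0.94 and 0.88), and their intervals included 1 in NEJ677. With the spots split at the median, Hnf4a in NEJ654 and Cebpa in NEJ638 no longer excluded 1, and Foxa1 was portal in NEJ677 at 0.80 (0.68 to 0.94). Nr1h4 was central in NEJ654 and NEJ677, at 1.19 and 1.11. Foxa1 and Foxa2 were central only in NEJ654, at 1.44 and 1.14, and Prox1 was on neither side in any of the 3, at 0.94 to 1.02. In NEJ146, with its sections added together, Nr1i3 was central at 1.24 (1.19 to 1.28) and Ppara on neither side at 0.93 (0.81 to 1.06). Foxa1, Foxa2 and Hnf4a were central there at 2.18, 1.21 and 1.04, Cebpa, Foxa3 and Nr1h4 portal at 0.90, 0.90 and 0.95, and Prox1 on neither side at 0.95. With 17459 and 15576 UMIs of Hnf4a in central and portal spots, counting intervals were narrow in NEJ146. Ratios as near 1 as those of Hnf4a and Nr1h4 therefore passed there, and the spread between its sections was not included. Central spots of the 3 tissues also held more UMIs, with a median of 15154 against 11327.5 in NEJ638, 19270.5 against 16579 in NEJ654 and 16096.5 against 15065.5 in NEJ677, and the part of depth was not tested.

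Spots outside the called tissue held UMIs of all 9 factors. Hnf4a was at 122 to 195 CPM off tissue and 123 to 200.3 CPM on tissue in the 6 tissues with a tissue call, and Nr1i3 at 8.72 to 169 CPM off tissue and 13.6 to 202 CPM on tissue, being lower off tissue in 5 of the 6. Ppara was higher off than on tissue in 5 of the 6, at 8.10 against 4.47 CPM in NEJ654. The median depth of these spots was 6660 to 11895 UMIs, against 12133.5 to 28926.5 UMIs on tissue. Depth was nearest in NEJ638, at 11895 UMIs off tissue and 12535 UMIs on tissue. The source of the RNA off tissue was not tested. No share of spots with a UMI of a factor is given for this reason. With all spots of each section counted, the gaps of Cebpa and Nr1i3 stayed above 2-fold and that of Ppara was 1.66-fold.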

How the data were processed

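For 10 Visium sections the files deposited by the authors hold UMI counts of each gene in every spot, neither normalized nor filtered nor pooled. The submitters' processing notes name Space Ranger 1.3 and mm10 for 6 sections and Cell Ranger 6.0 for the 4 of NEJ146, for which a build is not given in the sources used here. How multi-mapping reads were treated was not given either. The deposited position files mark the spots over tissue in 6 sections. For NEJ146, spots with 8000 or more UMIs were taken.

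Counts were summed over tissue spots and divided by the total to give CPM, with exact 95% Poisson intervals. Depth was 39280329 to 117077925 UMIs a section. Intervals and ratios cover counting error only. A gene counted as apart when all 4 tissues called tumours in the study lay at least 2-fold beyond the other 3, among genes with a mean of 1 CPM or more. No test was made between tissues, since the labels do not group them and 6 of the 7 have 1 section.

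Within tissues, spots with 1000 or more UMIs were divided into 3 parts by enzyme share, and the sums of the outer parts (those of the NEJ146 sections added together) were tested with edgeR 4.0.16 (TMM, filterByExpr, quasi-likelihood, tissue as a block, Benjamini-Hochberg adjusted p of 0.05) in R 4.3.3, with DESeq2 1.42.0 as an alternative. The edgeR fit was also run on simulated counts, and the outcome is not reported here. Alternatives were other scalings, folds, UMI minimums, spot sets and marker lists, and leaving out each tissue or NEJ146 section.

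The text names the 9 factors, the 2 genes most like each over the 7 tissues, and in each list the 3 most abundant genes and any gene called against most of its list. Other genes were named after their values were seen, and some list genes that the rule names are not reported here. The factors and lists were chosen with earlier results of these data known. Gene positions are those of GENCODE M21 (GRCm38).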

Additional observations from a re-analysis of the deposited data

Results flagged for a closer look

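Nr1h4 in section 4 of NEJ146 stood away from the other 3 sections. It was at 50.4 CPM, against 44.3 to 44.7 CPM, and the gap to the nearest section took 0.93 of the whole range, above Dixon's 95% critical value for 4 samples. Chance alone marks about 1 in 20 groups, and 9 factors were examined. With total UMIs the distance of Nr1h4 between the tissue sets is set by NEJ654 and NEJ634, so this section does not enter it there, while the distance with TMM factors was not recomputed without it.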

How the results depend on the processing

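The count of factors at least 2-fold lower in the 4 tissues was 2 with total UMIs. It was 4 with TMM factors (Cebpa, Foxa2, Nr1h4 and Nr1i3, where 7.05% of genes were called) and 4 at 1.5-fold (7.84% of genes), and 0 at 3-fold (2.46% of genes). With totals that leave out mitochondrial, globin, plasma protein and enzyme genes it was 3 (Cebpa, Nr1h4 and Nr1i3, 5.98% of genes). Leaving out each NEJ146 section gave 2 to 2. With TMM factors and with the reduced totals the distances of all 9 factors between the tissue sets moved by more than the spread between sections. Settings that change NEJ146 alone cannot move a distance set by other tissues. Hnf4a, Foxa1 and Foxa3 overlapped with total UMIs and stood apart with TMM factors.

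Between enzyme-rich and enzyme-poor spots, edgeR called 0 factors and 0 genes, with 2651 genes at an unadjusted p under 0.05. DESeq2 called 190 genes higher and 146 lower, and no factor. Spots split by plasma proteins gave 1 factor (Cebpa, 0.24, adjusted p = 0.0316 with edgeR). Beside it, 315 genes were higher and 79 lower of 13059 tested (2.41% and 0.605%). The same split turned Foxa1 to -0.043, Foxa3 to 0.25, Nr1i3 to -0.21 and Ppara to -0.18. Foxa1 was -0.060 without TMM and -0.19 to 0.22 when each tissue was left out, and leaving out a tissue gave 0 to 0 calls. In fits chosen after seeing the data, Hnf4a was -0.011 and Cebpa -0.010 in NEJ638, NEJ654 and NEJ677 alone. In the 4 tumours alone they were 0.26 and 0.22 (adjusted p = 0.233 and 0.255 with edgeR) and Foxa1 was -0.13. Nr1i3 was 0.30 in those 3 tissues and 1.08 in the 4 tumours, and Nr1h4 0.035 and 0.58. No factor had an adjusted p under 0.05 with edgeR in either fit. The enzyme split was narrower in NEJ638, NEJ654 and NEJ677 than in the 4 tumours. The cause of the difference was not tested. Of 135 such values, 122 kept their direction and side of the threshold. By lobule zone, 2 factors were central, and 1 (Nr1i3) with spots split at the median.

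No paired analysis was possible because the replicate number that the tissues share only names their single sections or the first of NEJ146, while the comparison of spots within tissues already had tissue as a block. Ppara and Foxa1 rest on the fewest UMIs, every tissue but NEJ146 has 1 section, and spots off the tissue hold the same transcripts.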
